A study of Homo sapiens with 6 samples.

Results

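The part of chromosome 3 examined here holds SATB1 and the gene-poor stretch downstream of it, on hg19 from 17850000 to 18600000, 750 kb in all. Every deposited H3K27ac peak that overlaps it was taken, 546 of 1440888 peaks over 6 libraries. For comparison across libraries, 24 of 18835 fixed regions lay in it, made by merging the strongest peaks of 5 libraries. SATB1 was placed at about 18387 to 18487 kb on the minus strand, so its 5′ end is the upper one and downstream means lower coordinates. This locus was chosen from measured values, since sites in it had stood out by rank between the genotypes and after treatment in these same libraries. Its differences are therefore given as a description beside the share of all regions, with no test.

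SATB1, the special AT-rich sequence binding protein, is a chromatin organiser that anchors AT-rich DNA and is abundant in developing T cells. In mice its loss disturbs the maturation of thymocytes. Acetylation of lysine 27 of histone H3 (H3K27ac) is placed by the acetyltransferases p300 and CBP and marks active promoters and enhancers. Where a marked site lies does not say which gene it acts on, and the sites here are tied to SATB1 by position only. In the RefSeq gene order the protein-coding neighbours are TBC1D5 on the downstream side and KCNH8 on the upstream side, and the long noncoding RNA BALR6 lies between TBC1D5 and SATB1.

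All libraries come from CCRF-CEM, a human leukemia cell line of T lymphoblasts, long established in culture. Knockout cells lacked SLFN11, a Schlafen family protein that sensitises cells to replication stress, and the parental cells are labelled wild-type. Cells of each genotype received DMSO (control) or 100 nM camptothecin, a topoisomerase 1 inhibitor, for 2 h or 4 h. Both times come from the treatment labels, whereas the chromatin protocol in the labels names 4 h only. Each of the 6 combinations has 1 library, so no difference here has a replicate check. The labels do not say whether the knockout cells are 1 clone, nor whether the samples come from separate cultures. The design asks whether acetylated chromatin responds to camptothecin with and without SLFN11. The T lineage markers and the SLFN11 locus were not checked here, for want of an hg19 annotation.

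The knockout 4 h library stood apart before any comparison. Its background was 0.168 fragments per base, against 0.699 and 0.715 in the other knockout libraries and 0.506 to 0.603 in the parental ones. In its list 59.7% of peaks carried the value of a pileup of 1 fragment, and its median width was 200 bp, against 431 to 449 bp elsewhere. The fixed regions were therefore built without it, and its ranks are shown beside the others. Knockout control and 2 h had the highest background of the 6, and the part of this in their higher ranks was not tested.

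Sequences of SATB1 starts are shown because the strongest acetylation of the locus, by mean rank over 5 libraries, lay at the 5′ part of the gene. RefSeq gives 4 starts of SATB1 and 1 of the antisense RNA SATB1-AS1, each with a window of 300 bases around it on GRCh38.p14. These positions belong to another build than the peaks and were not placed on them. The outermost SATB1 starts lie 20253 bp apart there. Capitals mark CG dinucleotides, the sites of DNA methylation.
SATB1 start 1, chr3:18445543-18445842, minus strand: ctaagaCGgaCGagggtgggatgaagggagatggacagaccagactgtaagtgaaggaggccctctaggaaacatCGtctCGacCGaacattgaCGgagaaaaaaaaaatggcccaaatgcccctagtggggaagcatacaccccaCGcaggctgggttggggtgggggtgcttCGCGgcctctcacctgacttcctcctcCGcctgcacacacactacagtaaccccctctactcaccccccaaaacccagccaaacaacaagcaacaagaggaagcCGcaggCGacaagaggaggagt
SATB1 start 4, chr3:18425290-18425589, minus strand: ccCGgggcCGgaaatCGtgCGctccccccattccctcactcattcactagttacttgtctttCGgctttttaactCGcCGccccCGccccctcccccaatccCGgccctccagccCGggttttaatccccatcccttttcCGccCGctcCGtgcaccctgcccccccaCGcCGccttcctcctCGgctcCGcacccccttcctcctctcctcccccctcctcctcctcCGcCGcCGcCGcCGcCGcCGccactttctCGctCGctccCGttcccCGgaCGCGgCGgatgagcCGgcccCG

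Of the 4 SATB1 windows, start 4 is the richest in CG, with 33 in 300 bases, and 17.2% of 35116 RefSeq windows hold at least as many. Start 1 has 12, start 2 has 14 and start 3 has 6, where the median window holds 14. The window of SATB1-AS1 has 47 CG, a number reached by 2.41% of windows. Motifs were searched on both strands. The AP-1 motif TGANTCA, bound by FOS and JUN proteins, was in 0 of these 5 windows and in 7.71% of all windows. The RUNX motif TGTGGT was in start 2 only, and in 13.1% of all windows. The TCF and LEF motif CTTTGAT was in none of the 5, against 2.62% of all windows. These matches describe the letters of the windows only.

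The deposited peaks of the locus numbered 99, 103 and 131 in knockout cells (control, 2 h, 4 h), and 73, 67 and 73 in parental cells (control, 2 h, 4 h). As a share of each list this was 0.0364%, 0.0464% and 0.0319% in the knockout and 0.0418%, 0.0371% and 0.0402% in the parental libraries. The whole lists differ in length, from 174843 to 410176 peaks, so the raw numbers are not a change. Among the 30000 strongest peaks of each library, the locus held 43, 41 and 18 in knockout cells (control, 2 h, 4 h), against 33, 24 and 23 in the parental libraries. These covered 42779, 39718 and 19660 bp of the locus in the knockout and 37918, 24019 and 26607 bp in the parental cells. The knockout value was the higher of each matched pair at control and 2 h and the lower at 4 h.

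Merging all 546 peaks gave 179 sites. Of these, 36 were marked in all 6 libraries and 53 were seen in the knockout 4 h list alone. The 24 fixed regions fell in 24 of the sites, of which 21 were marked in all 6 libraries. The other 155 sites held weak peaks, with a −log10 q of at most 4.35 in any library. Leaving knockout 4 h aside and merging the 30000 strongest peaks per library, the locus had 54 sites, of which 16 (29.6%) were marked in all 5, against 35.1% of 51668 such sites over the genome. Another 8 (14.8%) were marked in both knockout libraries and in no parental one, against 2.21% of all. The opposite pattern, all 3 parental and no knockout library, was seen at 0 sites, against 0.886% of all. In the 3 libraries other than treated parental, but not in those 2, 4 sites were marked (7.41%), against 1.57% of all, and 0 in the treated parental libraries only, against 1.7%.

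The 24 regions fell into 5 groups by position, split where the gap to the next exceeded 30 kb, a limit set after the positions were seen. A far downstream group of 12 sites lay about 357 to 485 kb beyond the 3′ end of the gene. A middle downstream group of 5 lay 218 to 269 kb beyond it, and a single site about 14 kb beyond it. Inside the gene, an intragenic group of 4 sites lay 59 to 76 kb below the 5′ end, and a 5′ pair lay at the 5′ end and about 20 kb into the gene. Below, each site is called by the distance of its midpoint from the 5′ end. Its strength in a library is the rank of its best peak by −log10 p among the 18835 regions, rank 1 being the strongest. A site was counted as moved past 3000 places.

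**Figure D1:**
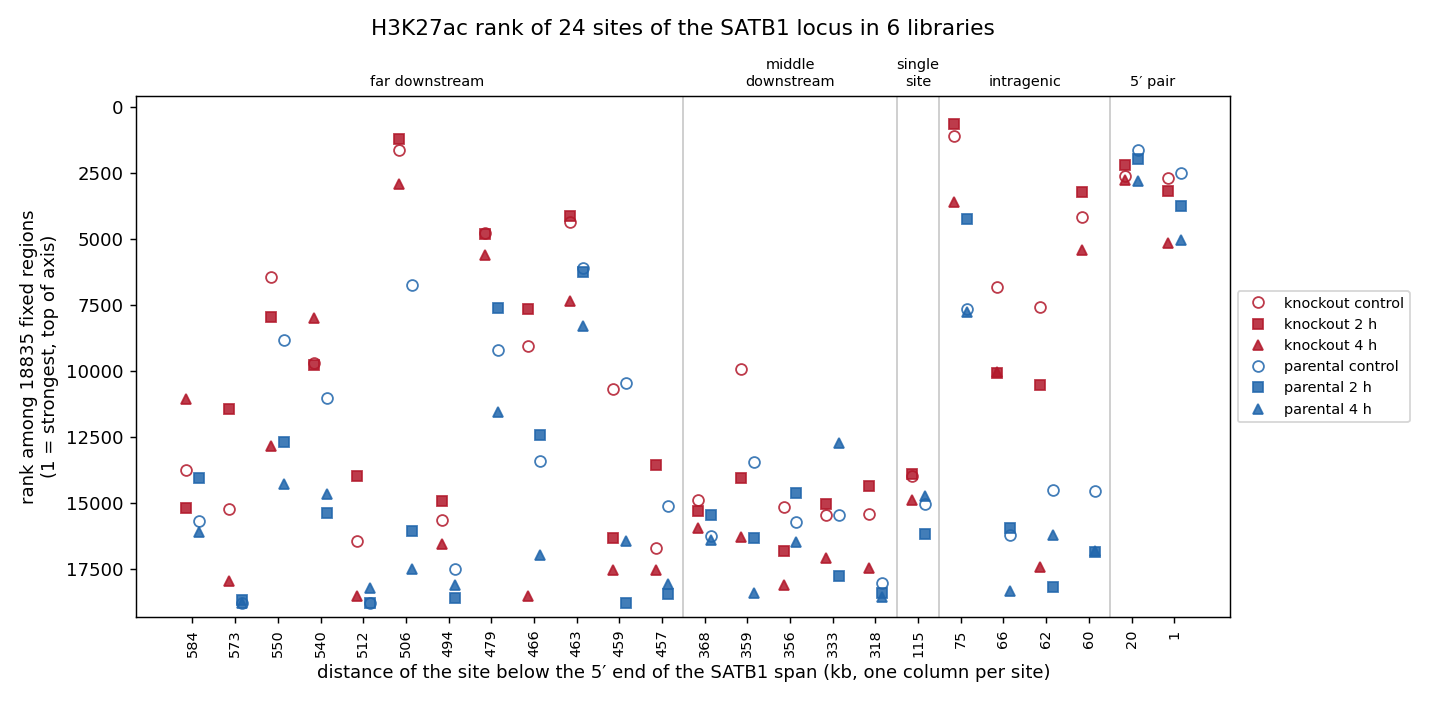
Rank of each of the 24 sites among 18835 fixed regions (vertical axis, rank 1 at the top) in the 3 knockout and 3 parental libraries, ordered by distance below the 5′ end of SATB1 in kb (horizontal axis); each marker is 1 library. The intragenic sites and the 506 kb site are spread by genotype, while the markers of the 5′ pair lie close together near the top.

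At the 5′ end of SATB1 the mark ranked high by −log10 p, and its fold was much alike in the 6 libraries. The 20 kb site (chr3:18465693-18467669) had a fold over background of 4.68, 4.69 and 4.43 in knockout cells (control, 2 h, 4 h), against 4.71, 4.78 and 4.66 in parental cells (control, 2 h, 4 h). Its ranks were 2601, 2195 and 2748 in the knockout and 1617, 1978 and 2804 in the parental libraries. The ranks of the genotypes overlap, and the peak was 1776 to 1949 bp wide throughout. By mean rank over 5 libraries it was the strongest site of the locus. Its −log10 p was 27.7, 32.3 and 10.1 in the knockout, against 31.9, 28.2 and 28.0 in the parental libraries. Ranked by fold it stood lower, between 6088 and 9575.

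The 1 kb site (chr3:18484989-18487443), which covers the upper end of the gene span, had a fold of 3.89, 3.90 and 3.52 in the knockout and 3.88, 3.91 and 3.97 in the parental libraries. It ranked 2689, 3184 and 5131 in knockout cells (control, 2 h, 4 h), and 2483, 3766 and 5041 in parental cells (control, 2 h, 4 h). In both genotypes the 4 h library gave the lowest rank, with changes from control of -2442 places in the knockout and -2558 in the parental cells, short of 3000. The pair spans 21751 bp from its first to its last base. The 20 kb site had no room to gain 3000 places at any of its ranks, and the 1 kb site had none from its control ranks. Losses of that size were open to both sites. The folds are therefore given beside the ranks for this pair.

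Inside the gene, all 4 intragenic sites ranked higher in knockout than in parental control cells, by 6557 to 10378 places, and at 2 h by 3580 to 13623. At 4 h, 3 of the 4 did so. The widest gap was at the 60 kb site (chr3:18426648-18428218). It ranked 4178, 3234 and 5402 in knockout cells (control, 2 h, 4 h), against 14556, 16857 and 16830 in the parental libraries. Its fold was 5.56, 6.11 and 4.97 in the knockout and 4.45, 3.58 and 3.63 in the parental cells, so the genotypes do not overlap in rank or in fold. This site was among those that led to the choice of the locus. A peak of 1485 to 1845 bp lay there in all 6 libraries, so the site was marked in both genotypes and differed in strength.

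The strongest intragenic site was the 75 kb site (chr3:18411134-18412486). It ranked 1080, 648 and 3585 in knockout cells (control, 2 h, 4 h), and 7637, 4228 and 7764 in parental cells (control, 2 h, 4 h). Every knockout rank was better than every parental one. Its −log10 p was 35.9, 43.4 and 9.14 in the knockout, against 14.8, 20.8 and 14.6 in the parental libraries. The fold was 10.3, 10.5 and 5.44 in the knockout and 6.70, 9.35 and 7.15 in the parental libraries, where the knockout 4 h value lies below all the parental ones. It was the site of the locus that moved up in parental cells at 2 h, by 3409 places over parental control, and at 4 h its change from parental control was -127.

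The 66 kb site (chr3:18421011-18421700) ranked 6807, 10079 and 10044 in the knockout, against 16206, 15960 and 18326 in the parental libraries, again without overlap. The 62 kb site (chr3:18424520-18424894) ranked 7570, 10521 and 17419 in the knockout, against 14513, 18169 and 16207 in the parental libraries. Here the knockout 4 h rank falls among the parental ones. Its fold was 4.23, 3.57 and 2.36 in the knockout and 4.21, 2.82 and 3.85 in the parental libraries, so the fold of the control cells was nearly the same in both genotypes while the −log10 p was 15.2 in knockout control and 6.71 in parental control. As a group, the 4 sites covered 3604, 3225 and 3263 bp in the knockout and 3587, 2962 and 3376 bp in the parental libraries. These sums rest largely on the 60 kb site, with 1485 to 1571 bp within its region in every library. The 75 kb site covered 602 to 1306 bp and the 66 kb site 278 to 690 bp.

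**Figure D2:**
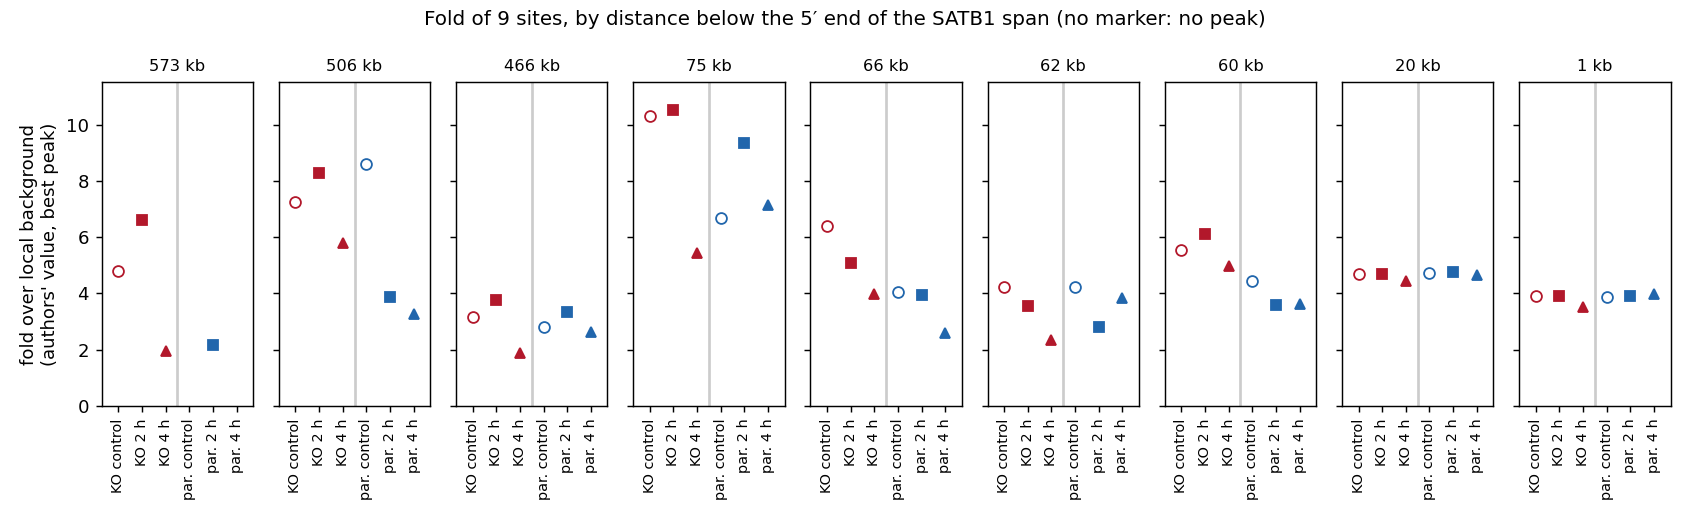
Fold over local background, the authors' value of the best peak (vertical axis), in 3 knockout libraries (left of the line) and 3 parental libraries (right of it) at 9 sites, headed by their distance below the 5′ end of SATB1 in kb. The 20 kb and 1 kb sites are level, between 3.52 and 4.78, while the 60 kb site lies between 4.97 and 6.11 in the knockout and between 3.58 and 4.45 in the parental libraries.

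The far downstream group held the site with the widest swing of the locus. The 506 kb site (chr3:17980562-17981525) ranked 1642, 1211 and 2899 in knockout cells (control, 2 h, 4 h), against 6750, 16075 and 17511 in parental cells (control, 2 h, 4 h). Its −log10 p was 32.2, 38.2 and 9.94 in the knockout and 16.4, 5.05 and 3.68 in the parental cells. The fold was 7.24, 8.27 and 5.80 in the knockout, against 8.60, 3.89 and 3.25 in the parental libraries. Parental control, with a peak of 538 bp, thus had the highest fold of the 6, while the knockout control peak was 963 bp wide. It was the locus' other leading site when the locus was chosen. Both treated parental libraries ranked it lower than parental control, with changes of -9325 places at 2 h and -10761 at 4 h. In the knockout the changes from control were 431 at 2 h and -1257 at 4 h.

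Of the 5 sites farther downstream, the 550 and 540 kb sites also ranked lower in treated parental cells, and the other 3 were weak there throughout. The nearest, the 512 kb site, changed by 6 places at 2 h and 566.5 at 4 h, and the 573 kb site by 133.5 and 8.5. The 584 kb site changed by 1628 and -430. The 550 kb site (chr3:17936153-17937755) ranked 6423, 7938 and 12851 in knockout cells (control, 2 h, 4 h), against 8816, 12670 and 14258 in the parental series. The 540 kb site (chr3:17945847-17949052), the widest of the locus, ranked 9703, 9754 and 7981 in knockout cells (control, 2 h, 4 h), against 11006, 15382 and 14645 in the parental series. Both lost more than 3000 places in each treated parental library. In the knockout at 4 h the change from control was -6428 places at the 550 kb site and 1722 at the 540 kb site.

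On the side towards the gene, the 479 kb and 463 kb sites were among the stronger ones. The 479 kb site (chr3:18007270-18009555) ranked 4761, 4826 and 5604 in the knockout, against 9214, 7610 and 11534 in the parental libraries, with no overlap. By fold it did not keep this order, with 4.98, 5.03 and 4.68 in the knockout and 4.80, 6.34 and 4.74 in the parental libraries. Ranked by fold, the parental minus knockout mean rank over the 5 libraries was -1074 places, against 4659 by −log10 p. The 463 kb site (chr3:18022538-18025003) ranked 4365, 4116 and 7351 in the knockout and 6080, 6254 and 8286 in the parental libraries, where knockout 4 h lies among the parental values. Its fold was lower in the knockout at each matched time, at 3.84, 4.34 and 3.51, against 3.89, 4.81 and 4.49 in the parental libraries. Its mean rank difference likewise turned, to -1484 by fold from 2633 by −log10 p. Its peak was 2285 to 2444 bp wide in all 6 libraries. The 466 kb site (chr3:18020335-18021044), a narrow neighbour of it, ranked 9046, 7667 and 18512 in the knockout and 13417, 12430 and 16973 in the parental libraries. Knockout 4 h gave it the lowest rank of the 6. The fold of the 466 kb site was 3.17, 3.78 and 1.88 in the knockout, against 2.80, 3.33 and 2.63 in the parental libraries. Parental 2 h thus lay above knockout control, and the genotypes overlap in fold.

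A few sites lacked a peak in some parental libraries. The 573 kb site (chr3:17913974-17914273) had a fold of 4.81, 6.62 and 1.95 in knockout cells (control, 2 h, 4 h). In the parental libraries it had no peak at control or 4 h and a fold of 2.18 at 2 h. The 512 kb site (chr3:17975007-17975317) had a fold of 4.06, 5.42 and 1.64 in the knockout, and in the parental libraries a peak at 4 h only, with a fold of 2.72. Both are short, at 300 and 311 bp. The 459 kb site (chr3:18027838-18028202) ranked nearly alike in the control cells of both genotypes and lower in the treated ones. It ranked 10689, 16314 and 17518 in knockout cells (control, 2 h, 4 h), and 10443, 18793 and 16447 in parental cells (control, 2 h, 4 h), where parental 2 h had no peak. It lost more than 3000 places in all 4 treated libraries.

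The remaining far downstream sites were weak. The 584 kb site ranked between 11072 and 16109 in the 6 libraries, the 494 kb site between 14903 and 18588, and the 457 kb site between 13549 and 18441. The middle downstream group was weak as well, with median ranks of 15162, 15032 and 17077 in the knockout and 15727, 16322 and 16468 in the parental libraries. In that group the 359 kb site (chr3:18127114-18127987) ranked 9925, 14038 and 16300 in knockout cells (control, 2 h, 4 h), and 13453, 16322 and 18402 in parental cells (control, 2 h, 4 h). Both genotypes stepped down in time order there. The 333 kb site (chr3:18153521-18154763) was the exception of the locus, as the only one past 3000 places lower in the knockout than in the parental library at a matched time. At 4 h it ranked 17077 in the knockout, against 12722 in parental cells. The 115 kb site, just beyond the 3′ end, ranked 13907 to 14869 in the knockout and 14723 to 16174 in the parental libraries.

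**Figure D3:**
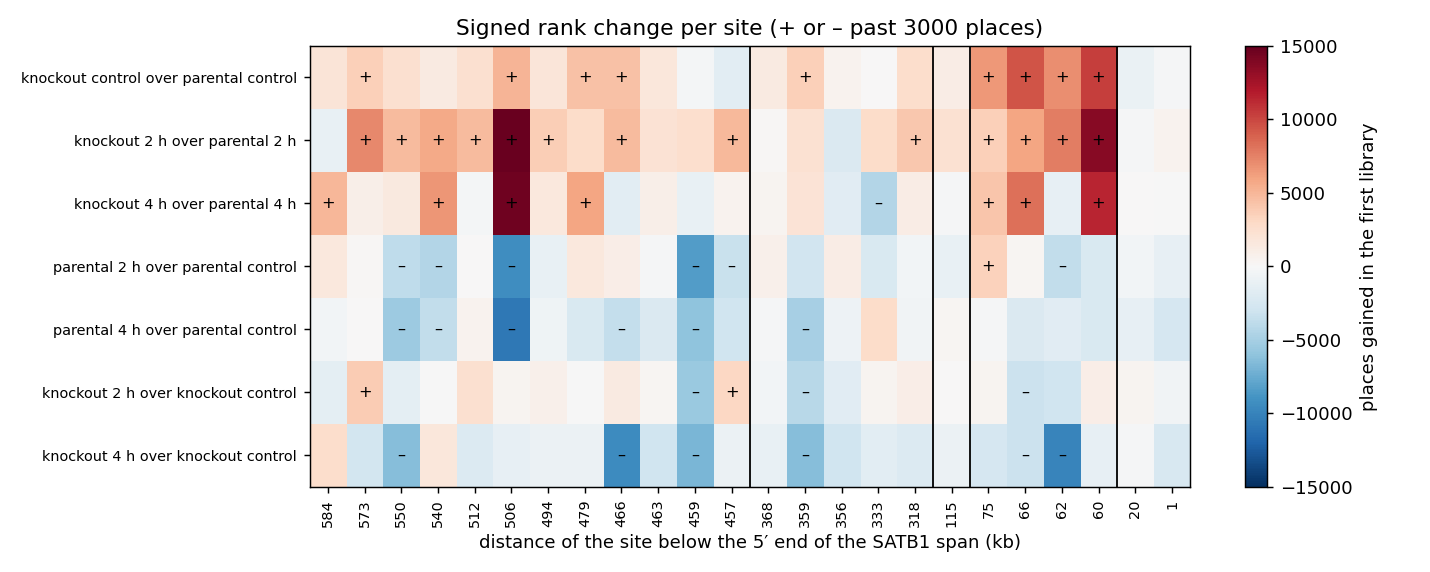
Places gained (red) or lost (blue) by each of the 24 sites in the first-named library of each of the 7 comparisons (rows), with sites in columns by distance below the 5′ end of SATB1 in kb; + and – mark changes past 3000 places. The 3 genotype rows are mostly red, with the deepest colour at the 506 kb and 60 kb sites, and the parental treatment rows are mostly blue in the far downstream group.

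Between untreated cells, 9 of the 24 sites ranked higher in knockout than in parental control by more than 3000 places, where 7.63% of all regions did. None ranked lower by that much, against 7.35% of all. The median site stood 2165 places higher in the knockout, where the median over all regions was -24. Of the 24 sites, 20 stood higher, against 48.9% of all regions. At 2 h, 13 sites ranked higher in the knockout than in the parental library, against 10.0% of all regions, and 0 lower, against 10.1%. The median gain was 3632 places, against -31 over all regions. At 4 h the counts were 7 higher and 1 lower, against 16.3% and 17.9% of all. The median gain there was 882 places, against -211 over all regions. These comparisons use separate libraries, and the 4 h one rests on the knockout 4 h library with its low background. By entry, 7 of the 24 sites (29.2%) were fixed regions through knockout peaks only, against 7% of all regions. Another 2 (8.33%) were so through parental peaks only, against 14.4%. Sites of the first kind favour the knockout by construction, and their part in these counts was not tested. Among the 13 they were the 573, 512, 494, 457, 318 and 66 kb sites, and among the 9 the 573 and 66 kb sites.

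Across libraries, 7 of the 24 sites (29.2%) ranked higher in knockout control and 2 h than in all 3 parental libraries by more than 3000 places, where 1.64% of all regions and 3.49% of the 1088 other regions of chromosome 3 did. These were the 573, 506, 466, 75, 66, 62 and 60 kb sites. The 573 and 66 kb sites were among the fixed regions through knockout peaks only, as were 7 of the 24 sites and 7% of all regions, and such a site was, by construction, outside the 15000 strongest peaks of every parental library. Of the 1318 regions that entered through knockout peaks only, 13.7% were separated in favour of the knockout, against 2 of the 7 in the locus. The other 5 separated sites entered through peaks of both genotypes, which 15 of the 24 sites did. Of the 14811 regions of this kind 0.864% were separated in favour of the knockout. None went the other way, against 0.669% of all. The limit was met narrowly by the 75 kb site, with 3148 places between the nearest libraries, and missed by the 479 kb site with 2784 and the 318 kb site with 2633. With knockout 4 h included, 3 sites kept the gap, the 506, 66 and 60 kb sites, against 0.706% of all regions, and 0 the other way, against 0.451%. With strength summed over the region in place of the best peak, 3 sites were separated, against 0.876% of all. Whatever the gap, knockout control and 2 h both outranked every parental library at 16 sites, against 15.7% of all, and were outranked at 0, against 16.0%. The ranks of the 3 knockout and 3 parental libraries did not overlap at 9 sites, all higher in the knockout, against 8.64% of regions higher and 9.89% lower. Time by time, 13 sites ranked higher in the knockout at all 3 matched conditions, against 15.7% of all, and 0 lower, against 18.8%. At control and 2 h, 18 did so, against 28.4%, and 1, the 20 kb site, ranked lower at both, against 30.5%. The counts of 16, 9, 13 and 18 all include sites that entered through knockout peaks only. Among the 16 these were the 573, 512, 494, 368, 318 and 66 kb sites. The shares over all regions beside these counts were not split by entry.

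Of the 1438 regions over the genome past 3000 places higher in knockout than in parental control, 1409 had a mean rank above 5000. Among the 13940 regions of that class, 2.17% were separated in favour of the knockout, against 6 of the 21 such sites of the locus. There, 10.1% of regions ranked higher in knockout than in parental control past 3000 places, against 8 of 21 sites, and 13.1% did so at 2 h, against 12 of 21.

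After camptothecin in parental cells, sites of the locus mostly went down in rank. At 2 h, 6 sites ranked lower than in parental control by more than 3000 places, where 8.1% of all regions did, and 1 ranked higher, against 8.79%. At 4 h, 6 ranked lower, against 7.45% of all, and 0 higher, against 7.13%. The median change was -736 places at 2 h and -1907 at 4 h, against -19 and 15 over all regions. Both comparisons share the parental control library. The 550, 540, 506 and 459 kb sites were past the limit at both times, the 457 and 62 kb sites at 2 h only, and the 466 and 359 kb sites at 4 h only. By sign alone, 13 sites ranked lower at both times, against 35.8% of all, and 2 higher, against 35.9%.

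Set against parental control, knockout control and knockout 2 h together, 3 sites (12.5%) ranked lower in both treated parental libraries past 3000 places, where 0.478% of all regions did. These were the 550, 540 and 506 kb sites of the far downstream group. None ranked higher, against 0.377% of all. The intragenic sites were not among those ranked lower by −log10 p. Ranked by fold, 3 sites were again lower, against 1.34% of all, but these were the 550, 506 and intragenic 60 kb sites. The fold of the 540 kb site was 3.38, 3.31 and 3.49 in parental cells (control, 2 h, 4 h), so it did not step down as its rank did.

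After camptothecin in knockout cells, sites went both ways at 2 h. Past 3000 places, 2 sites (8.33%) ranked higher than in knockout control, the 573 and 457 kb sites, against 4.5% of all regions. Another 3 (12.5%) ranked lower, the 459, 359 and 66 kb sites, against 4.68%, with a change of -5625 places at the 459 kb site. The median change was 154 places, against 17 over all regions. By sign, 13 sites were higher, against 50.7% of all regions, and 11 lower. At 4 h, 6 sites ranked lower than in knockout control, against 16.1% of all regions, and 0 higher, against 15.2%. The median change was -2071 places, against -248 over all regions. By sign alone, 9 sites ranked lower at both times, against 31.4% of all, and 0 higher, against 27.2%. The low background of knockout 4 h moves with these values, and its part in them was not tested. Both comparisons share the knockout control library.

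**Figure D4:**
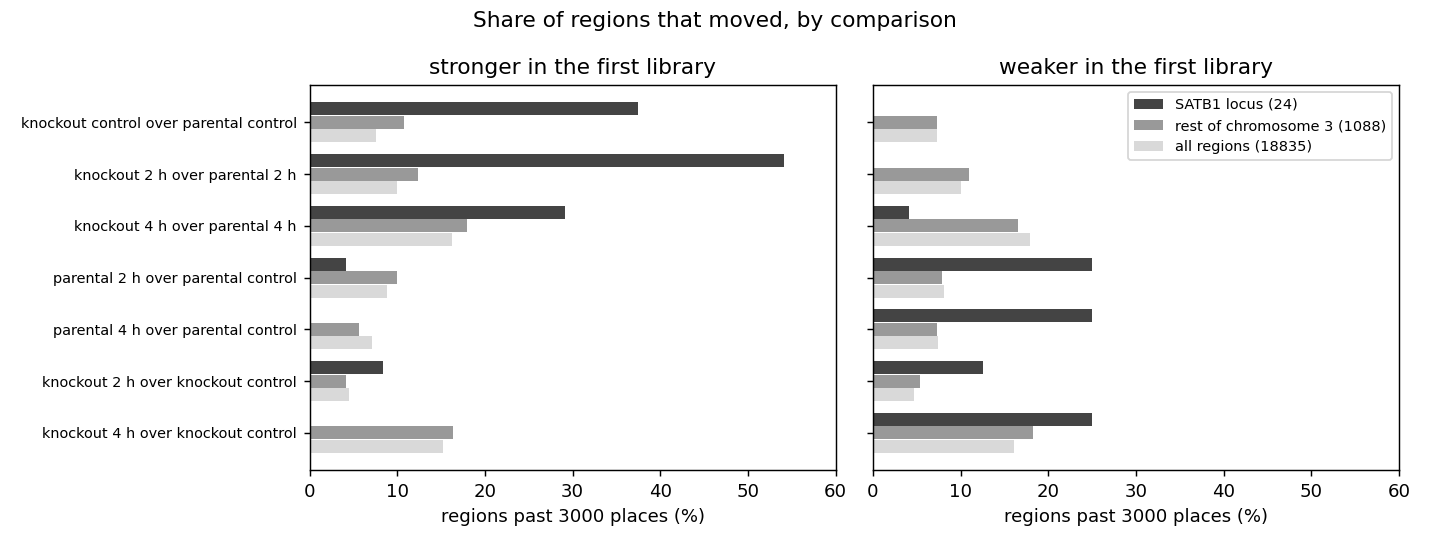
Percentage of regions that gained (left) or lost (right) more than 3000 places in the first-named library, for 7 comparisons, in the 24 sites of the SATB1 locus, the 1088 other regions of chromosome 3 and all 18835 regions. On the left the locus bars are longest for the knockout over parental, at 37.5%, 54.2% and 29.2% for control, 2 h and 4 h, and on the right they are 25.0% for both treated parental libraries and for knockout 4 h, and 12.5% for knockout 2 h, each over its control and each above the other bars.

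Whether sites moved together was read from the signs of adjacent sites. In knockout over parental control, 20 of 23 adjacent pairs of sites (87.0%) had the same sign, where 53.1% of 15355 adjacent pairs of regions at most 202793 bp apart did over the genome. At 2 h it was 18 of 23 (78.3%), against 54.1%, and at 4 h 10 of 23 (43.5%), against 53.1%. In parental 2 h over control the share was 12 of 23 (52.2%), against 52.5%, and at 4 h 15 of 23 (65.2%), against 53.9%. In knockout 2 h over control it was 11 of 23, against 50.6%, and at 4 h 20 of 23, against 54.0%. A locus in which most sites move one way has many pairs of like sign whatever their order, so these shares follow the counts above. By −log10 p rank, the median gains in the knockout at control and 2 h were largest in the intragenic and far downstream groups. They were 8171 and 2165 places at control and 6764 and 4748 at 2 h. Ranked by fold, the mean rank difference turned at the far downstream 479, 463 and 459 kb sites. The 573, 512, 494 and 457 kb sites of that group had entered through knockout peaks only. The 5′ pair changed by -984 to 582 places over the 3 matched conditions, with limited room to gain but not to lose. The middle downstream group had median gains of 1365 places at control and 2284 at 2 h, and the single downstream site gained 1082 and 2267.

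At the borders of the locus, the nearest region outside on the downstream side (chr3:17783396-17784608) was far stronger than any member, with ranks of 223, 151 and 210 in the knockout and 353, 371 and 483 in the parental libraries. The first region inside, the 584 kb site, ranked 13728, 15189 and 11072 in the knockout and 15679, 14051 and 16109 in the parental libraries. On the upstream side, the nearest region outside (chr3:18754565-18756103) ranked 12822, 14072 and 10842 in the knockout, against 17873, 15000 and 18205 in the parental libraries. No fixed region lay between the 1 kb site and it.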

How the data were processed

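H3K27ac ChIP-seq of 6 libraries was deposited as 1 list of broad peaks per library on hg19. Per the submitters' processing notes the tools named, with no role, include MACS2 2.1.2, BWA 0.7.17, Picard 2.9.2, SAMtools 1.8, Trimmomatic 0.39 and Trim Galore 0.6.2. The sources used here give neither settings nor the control of the peak calls. The authors' fold was read as a ratio of pileup to local background with 1 added to both, so it also depends on the background of its library. Folds set side by side across libraries carry that limit. The authors' fold, −log10 p and −log10 q are values within a library. MACS2 averages these over a broad peak, so they vary with its borders. The deposited score, 10 times the −log10 q, was a check only. Reads and depth were not analysed here. The background pileup was solved from the commonest combination of fold and p-value per list, to within 1.22e-05 of the −log10 p.

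With Python 3.11.15, pandas 2.3.3 and numpy 2.4.6, the 15000 strongest peaks by −log10 p of 5 libraries on chromosomes 1 to 22 and X were merged where they overlapped by 1 bp. Each region was ranked per library by its best deposited peak. Regions without a peak tied last. The separation step was tested on simulated lists, all copies of the parental control list with noise on −log10 p. They do not carry the unlike lengths and backgrounds of the real lists, so they cannot show how these affect the counts. Regions named with coordinates are those in the gene span, those separated, the 3 strongest, and the largest change each way per comparison; others were chosen after their values were seen. Members and gene groups were chosen with earlier results of these data known. An hg19 annotation was not used here, so the planned neighbour genes and cell type markers were not placed.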

Additional observations from a re-analysis of the deposited data

How the results depend on the processing

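No paired analysis was possible because each group has 1 library and so no replicate numbers to block on; the matched conditions are compared time by time instead. The direction with more sites did not turn in any count run, but 4 became ties: 3 each way for knockout 2 h over control when ranked by fold and with most of a peak inside the region, 7 each way for knockout over parental at 4 h with regions from all 6 libraries, and 1 each way for parental 2 h with the 10000 strongest peaks. Counts of moved sites, both directions together, are 7 separated by genotype, 3 in treated parental cells, 9, 13 and 8 for knockout over parental at control, 2 h and 4 h, 7 and 6 for parental 2 h and 4 h over control, and 5 and 6 for knockout 2 h and 4 h over control. The shares of all regions, in this order, were 2.31%, 0.855%, 15.0%, 20.0%, 34.3%, 16.9%, 14.6%, 9.19% and 31.3%. The following differed by more than 1.5 times. With regions from the 10000 strongest peaks the locus holds 13 sites, fewer by construction, and the counts were 3 by genotype, 1 in treated parental cells, 5 for knockout over parental at 2 h, 2 and 1 for parental 2 h and 4 h, and 1 and 2 for knockout 2 h and 4 h. In the same order, 0.866%, 0.21%, 6.93%, 4.71%, 5.35%, 2.83% and 13.6% of all regions did so. With the 30000 strongest it holds 54, and the counts in the order first given were 21, 12, 38, 45, 38, 33, 36, 34 and 42. Of all regions, 10.1% were separated by genotype, 10.5% were in treated parental cells, and 53.7% to 71.3% moved in the single comparisons. Regions from all 6 libraries, 25 in the locus, gave 14 for knockout over parental at 4 h (56.0%), against 58.2% of all regions. They gave 11 for parental 2 h (44.0%), against 20.0%, and 17 for knockout 4 h (68.0%), against 58.7%. Ranking by fold gave 13 for knockout 4 h (54.2%), against 49.7% of all regions. A gap of 2000 places gave 5 in treated parental cells, 20 for knockout over parental at 2 h, 13 for parental 4 h and 14 for knockout 4 h. The shares of all regions were 2.87%, 33.2%, 28.1% and 46.2%. A gap of 5000 gave 3 by genotype, 1 in treated parental cells, 5 and 6 for knockout over parental at control and 2 h, 2 and 3 for parental 2 h and 4 h, and 1 for knockout 2 h. Over all regions the shares were 0.6%, 0.101%, 3.84%, 6.23%, 4.29%, 3.05% and 1.48%. Strength summed over the region, chosen after seeing the data, gave 3 by genotype, 5, 8 and 5 for knockout over parental at control, 2 h and 4 h, 2 for parental 2 h and 1 for knockout 2 h. Of all regions, 1.17%, 6.48%, 8.37%, 19.5%, 5.54% and 3.59% did so. All 6 libraries in the genotype split gave 3, against 1.16% of all regions. Leaving out each of the 5 libraries in turn, also chosen after seeing the data, gave 7 to 9, against 3.26% to 5.63% of all regions.

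Covered length in knockout control, 2 h and 4 h was 23810, 22832 and 14657 bp with the 15000 strongest peaks, against 18711, 12042 and 15781 bp in the parental libraries. With all deposited peaks it was 71515, 70216 and 77085 bp in the knockout and 57705, 43507 and 48907 bp in the parental libraries, and among peaks reaching a −log10 q of 5 it was 21841, 24273 and 6860 bp and 16874, 10203 and 10420 bp. Ranked by fold, 6 sites were separated by genotype, the 573, 512, 494, 318, 66 and 60 kb sites, against 1.98% of all regions. Of these, all but the 60 kb site had entered the fixed regions through knockout peaks only. The 506, 466, 75 and 62 kb sites were not separated by fold. With this ranking the sign of the parental minus knockout mean rank turned at 5 of 24 sites, the 479, 463, 459, 333 and 1 kb sites. By fold, 85 of 144 ranks of single sites stayed within 3000 places. The causes were not tested. Reads were not at hand, so depth is unknown; the knockout 4 h list had the lowest background, 0.168 fragments per base.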

Other observations

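The rank pattern of the 60 kb site, high in the knockout and low in the parental libraries, was also found outside the locus. By the summed absolute rank difference over the 6 libraries, the most alike of all other regions was on chromosome 8 from 130381476 to 130382261, with a difference of 6908 places. It ranked 7573, 2985 and 3604 in knockout cells (control, 2 h, 4 h), and 15562, 17223 and 16924 in the parental libraries. Next came chromosome X from 39864195 to 39866116, with 8876 places. It ranked 5760, 4695 and 8545 in the knockout and 14810, 16214 and 15037 in the parental libraries. The third was chromosome 18 from 12938584 to 12939758, with 10027 places. Genes were not placed at these positions.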
